A study of Homo sapiens with 21 samples.

Results

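The nuclear genes of oxidative phosphorylation were followed through 21 messenger RNA libraries of HEK 293FT cells. The set holds every protein-coding symbol of the deposited table that begins with NDUFA, NDUFB, NDUFC, NDUFS, NDUFV, UQCR, ATP5, COX4I, COX5, COX6, COX7 or COX8, together with SDHA, SDHB, SDHC, SDHD and CYC1. That rule took 98 of the 27142 genes listed. By textbook assignment 37 belonged to complex I, 4 to complex II, 10 to complex III, 17 to complex IV (NDUFA4 among them) and 16 to complex V. The remaining 14 were the complex I assembly factors NDUFAF1 to NDUFAF8, the read-through annotations NDUFC2-KCTD14 and ATP5J2-PTCD1, and NDUFA4L2, COX7A2L, ATP5S and ATP5SL. Symbols are those of the table, which keeps the older names of the ATP synthase genes.

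Oxidative phosphorylation takes electrons from NADH at complex I (NADH dehydrogenase) and from succinate at complex II, passes them through ubiquinone to complex III (cytochrome bc1) and through cytochrome c to complex IV (cytochrome c oxidase). Complexes I, III and IV pump protons across the inner mitochondrial membrane, and complex V (ATP synthase) uses the gradient to make ATP. Complex II is built from nuclear genes alone, whereas the other complexes also hold subunits encoded by mitochondrial DNA, which are no members here.

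The series asks, by its title, how specific the RNA-cutting CRISPR nuclease RfxCasR is beside matching short hairpin RNAs (shRNAs). HEK 293FT is a human embryonic kidney line that carries the SV40 large T antigen. Cells at passages 8 to 12 received plasmids with a lipid reagent, and RNA was taken 48 h later for stranded libraries; the labels name no selection of transfected cells. There were 3 libraries in each of 7 groups. Cells received an shRNA against ANXA4, an shRNA against B4GALNT1, RfxCasR with a B4GALNT1 guide RNA (gRNA), RfxCasR with a non-targeting (NT) gRNA, or an NT shRNA. The last 2 groups received RfxCasR with an ANXA4 array of guides or with an NT array. All groups therefore share the line, the transfection and the time, and no untransfected group is among the samples. The labels do not say whether the 3 replicates of a group came from separate cultures, so p-values measure only the spread between these libraries.

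Depth recovered from the values was 34.7 to 39.5 M reads in the 6 array libraries and 21.4 to 30.7 M reads in the other 15, those of the hairpins and single guides. ANXA4, an annexin, fell with its shRNA (2.40 ± 0.219 FPKM with the ANXA4 shRNA and 5.90 ± 0.378 FPKM with the NT shRNA, SD, n = 3 each; limma adjusted p = 9.23e-09). B4GALNT1, a ganglioside-forming glycosyltransferase, fell with its shRNA (log2 change -0.43) and its gRNA (-1.09). In the array libraries ANXA4 went against the labels, with 7.04 ± 0.240 FPKM in the libraries labelled ANXA4 array and 3.03 ± 0.427 FPKM in those labelled NT array (SD, n = 3 each; limma adjusted p = 0.00837). In the authors' deposited table for the arrays the ANXA4 log2 fold change has the opposite sign, -1.21. Array values are given below under the labels as they stand, and the direction of any array difference rests on them. As a check of the cell type, 10 markers of blood, fibroblasts and endothelium summed to between 5.71 and 12.1 FPKM per library, with 8 or 9 of the 10 under 1 FPKM and 2 to 4 at 0 in each group. Most of the sum was COL1A1, listed for fibroblasts. Its group means ran from 4.7 FPKM under the label NT array to 9.95 FPKM with the RfxCasR NT gRNA.

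The members were abundant. FPKM is a level scaled to exon length and to depth, so that genes can be compared. Of the 98 members, 91 reached 1 FPKM in at least 3 of the 21 libraries. Among the 90 that did so in the 15 shRNA and single-guide libraries, the median member had a mean of 108.5 FPKM, against 9.45 FPKM for the median of all 13554 genes tested. Their exon length had a median of 866 bases, against 2682 bases over all genes tested. COX7C, a small subunit of complex IV, was the highest member at a mean of 635 FPKM over the 21 libraries, and ATP5B, the catalytic beta subunit of ATP synthase, followed in complex V at 555 FPKM. In complex I the levels lay between 9.99 FPKM for NDUFA5 and 367 FPKM for NDUFA13, both accessory subunits. In complex II they lay between 19.5 FPKM for SDHC, a membrane anchor, and 114 FPKM for SDHA, the flavoprotein that oxidises succinate. In complex III UQCRB was lowest at 33.9 FPKM and UQCRH, the hinge protein, highest at 221 FPKM. NDUFA4 was the lowest member of complex IV above the filter, at 36.9 FPKM.

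In complex IV, where several subunits have isoforms, 1 form carried nearly all of the message. COX4I1, the general form of subunit 4, had 458 FPKM, whereas COX4I2, known from lung, was at most 0.061 FPKM in any library. COX6A1 had 258 FPKM and the muscle form COX6A2 at most 0.079 FPKM. COX7A2 had 249 FPKM, COX7A2L, a related protein of respiratory supercomplexes, 85.9 FPKM, and the muscle form COX7A1 at most 0.152 FPKM. COX6B1 had 233 FPKM and COX8A 362 FPKM, while the testis forms COX6B2 and COX8C stayed at or under 0.519 and 0.472 FPKM. The same held for COX7B at 294 FPKM beside COX7B2 at no more than 0.082 FPKM, a pair named after its values were seen. NDUFA4L2, the form of NDUFA4 known from hypoxia, was at most 0.563 FPKM. The 3 genes for the membrane ring of ATP synthase, which give the same mature c subunit, were all expressed: ATP5G2 averaged 205 FPKM, ATP5G1 155 FPKM and ATP5G3 102 FPKM. UQCRHL, listed at 83.7 FPKM beside 221 FPKM for UQCRH, is a near-identical intronless copy, and how reads were divided between the pair is uncertain. The 8 members under the filter in the 15 libraries were COX4I2, COX6A2, COX6B2, COX7A1, COX7B2, COX8C, NDUFA4L2 and ATP5L2. ATP5L2, a copy of ATP5L, passed the filter in the array libraries only, at 1.18 FPKM over the 6.

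**Figure D1:**
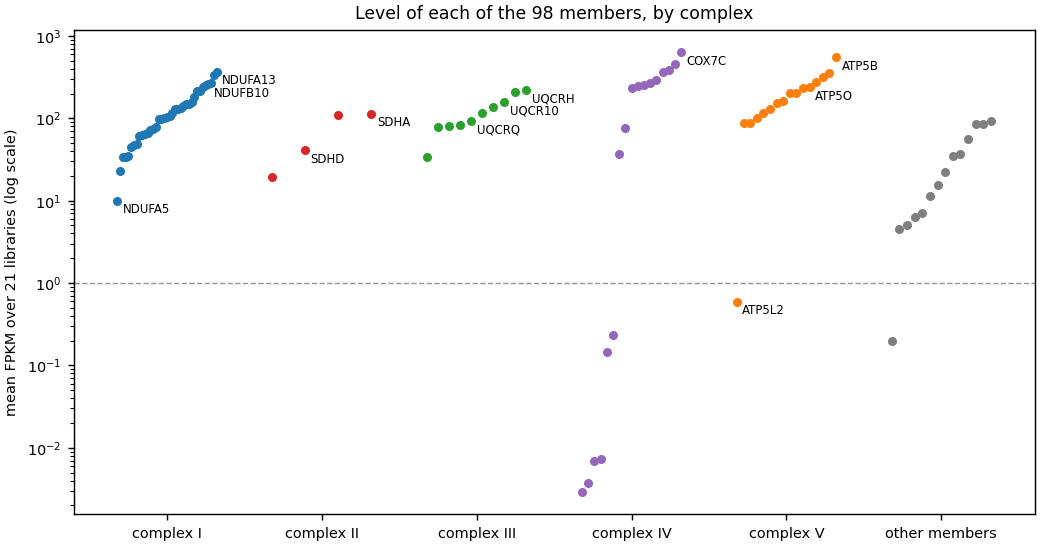
Mean FPKM over the 21 libraries (log scale) of each of the 98 members, ordered within complexes I to V and the other members; the dashed line marks 1 FPKM. Complex IV splits between subunits from 36.9 to 635 FPKM and 6 tissue-specific forms under 1 FPKM.

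Summed over its members, the means of complexes I to V were at most 18.9% apart in the comparisons of shRNA and single-guide groups made here, and at most 1.84% apart between the array groups. All array libraries held higher sums than the other 15 for complexes I, II, III and V: complex V summed to 3617 to 3870 FPKM in those labelled ANXA4 array and 3543 to 3966 FPKM in those labelled NT array, and complex I to 5014 to 5303 FPKM and 4862 to 5462 FPKM in the same order. These sums are a description without a test. Among the other 15 libraries complex V summed to 2945 to 3013 FPKM with the ANXA4 shRNA, 2977 to 3094 FPKM with the B4GALNT1 shRNA, 3137 to 3293 FPKM with the RfxCasR B4GALNT1 gRNA and 3174 to 3230 FPKM with the RfxCasR NT gRNA, against 2596 to 2764 FPKM with the NT shRNA. All 3 NT shRNA libraries lay below the other 12. Without ATP5O the 12 libraries held 2708 to 3040 FPKM and the NT shRNA libraries 2482 to 2646 FPKM, so that the gap did not rest on that member alone. Among these 15 libraries complex I was highest with the ANXA4 shRNA, at 4723 to 4742 FPKM, against 4177 to 4382 FPKM with the NT shRNA; the B4GALNT1 shRNA libraries (4366 to 4505 FPKM) overlapped the NT shRNA ones. Complex III went the other way, with 1092 to 1114 FPKM with the ANXA4 shRNA and 1140 to 1191 FPKM with the NT shRNA. Complex II summed to 256 to 262 FPKM with the ANXA4 shRNA, 272 to 287 FPKM with the B4GALNT1 shRNA and 253 to 258 FPKM with the NT shRNA. Complex IV differed by 3.77% between the ANXA4 and NT shRNA means, and by 7.8% between the RfxCasR NT gRNA and NT shRNA means. The single-guide libraries summed to 281 to 288 FPKM for complex II and to 1181 to 1232 FPKM for complex III.

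**Figure D2:**
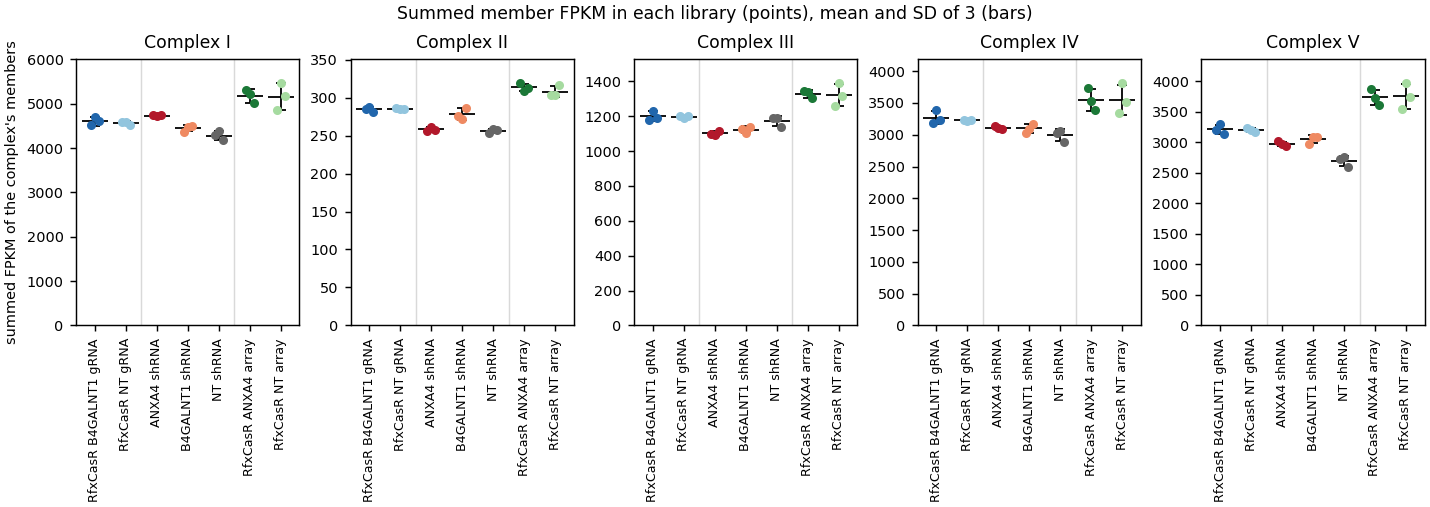
Summed FPKM of the members of complexes I to V in each library (points), with the mean and SD of the 3 libraries of a group (bars). The NT shRNA libraries are lowest for complex V (2596 to 2764 FPKM), and the array libraries are highest for complexes I, II, III and V.

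With the ANXA4 shRNA, 61 of the 90 members tested passed limma's adjusted p under 0.05, 45 higher and 16 lower than with the NT shRNA. Of all genes tested 56.1% passed, 27.8% higher and 28.3% lower, and among genes with a mean of at least 5 FPKM 65.6% passed. The median log2 change was 0.10 over the members and -0.01 over all genes tested. A change of at least 0.5 on the log2 scale was seen for 11 members (12.2%), beside 12% of all genes tested. In complex I 20 of 37 rose and 6 fell. NDUFA12, an accessory subunit of the matrix arm, rose most, with 108, 108 and 109 FPKM with the ANXA4 shRNA and 68.4, 76.4 and 68.2 FPKM with the NT shRNA (log2 change 0.60, SE 0.0528, limma adjusted p = 1.65e-07). NDUFS1, the large iron-sulphur subunit that takes electrons from the flavin, fell most (37.1, 38.1 and 35.1 FPKM with the ANXA4 shRNA and 45.4, 47.4 and 45.0 FPKM with the NT shRNA; log2 change -0.32). The libraries of the 2 groups did not overlap for either gene.

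NDUFB10, an accessory subunit of the membrane arm (NM_004548, hg19 chr16:2009517-2011976, plus strand), had 313, 296 and 302 FPKM with the ANXA4 shRNA, 270.2, 280.2 and 279 FPKM with the B4GALNT1 shRNA and 219.8, 228 and 221 FPKM with the NT shRNA. The ANXA4 shRNA libraries were above all others of the 15, and the NT shRNA libraries below all others. Its log2 change was 0.45 with the ANXA4 shRNA and 0.31 with the B4GALNT1 shRNA (limma adjusted p = 1.52e-09 and 1.29e-07).

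In complex II SDHD rose and SDHA fell with the ANXA4 shRNA. SDHA had 106, 109.7 and 105 FPKM with the ANXA4 shRNA and 126, 126 and 129.9 FPKM with the NT shRNA, a log2 change of -0.25. In complex IV 6 of 11 members rose and 1 fell. COX5A, a matrix-facing subunit, rose most (log2 change 0.27, 315, 316 and 307 FPKM with the ANXA4 shRNA and 268, 272 and 239.9 FPKM with the NT shRNA). COX8A, the smallest membrane subunit, was the member that fell (log2 change -0.17). In complex V 8 of 15 rose and 3 fell. ATP5D, the delta subunit of the rotor stalk, fell most, with 76.2, 77.4 and 83.4 FPKM with the ANXA4 shRNA and 98.1, 106 and 99.97 FPKM with the NT shRNA (log2 change -0.35). ATP5G1, of the c ring, had 154, 166 and 152 FPKM with the ANXA4 shRNA, above every other shRNA and single-guide library, and 105, 111 and 103 FPKM with the NT shRNA (log2 change 0.56). ATP5G2 and ATP5G3 differed less, with log2 changes of -0.03 and 0.12.

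With the B4GALNT1 shRNA 43 of 90 members passed, 32 higher and 11 lower, beside 49.4% of all genes, 20.5% higher and 28.9% lower, and 58.3% of genes with a mean of at least 5 FPKM. The NT shRNA libraries serve as control here too, so the 2 comparisons are not independent. The median log2 change was 0.06 over the members and -0.04 over all genes tested. These medians were 0.11 and 0.01 after median-centring, and 0.03 and -0.01 after quantile normalization. The direction depended on scaling, with 43 higher and 8 lower after median-centring and 20 higher and 17 lower after quantile normalization. Of all genes 26.08% were higher and 22.39% lower after median-centring, and 23.55% and 24.38% after quantile normalization. Complex V had 10 of 15 members higher and 2 lower, complex I 15 of 37 higher and 5 lower, and complex IV 3 of 11 higher. In complex III 0 of 10 rose and 3 fell by limma, and 4 had an unadjusted p under 0.05. NDUFA12 again rose most in complex I (log2 change 0.46) and NDUFS1 fell most (-0.39). COX6B1, a subunit on the intermembrane side of complex IV, rose by a log2 of 0.18, and ATP5D fell by 0.28 on the log2 scale. The authors' deposited tables listed 92 members and called 45 higher and 15 lower for the ANXA4 shRNA. For the B4GALNT1 shRNA they called 41 higher and 8 lower. Of all genes listed there 45.1% and 39.04% were called, in the same order.

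**Figure D3:**
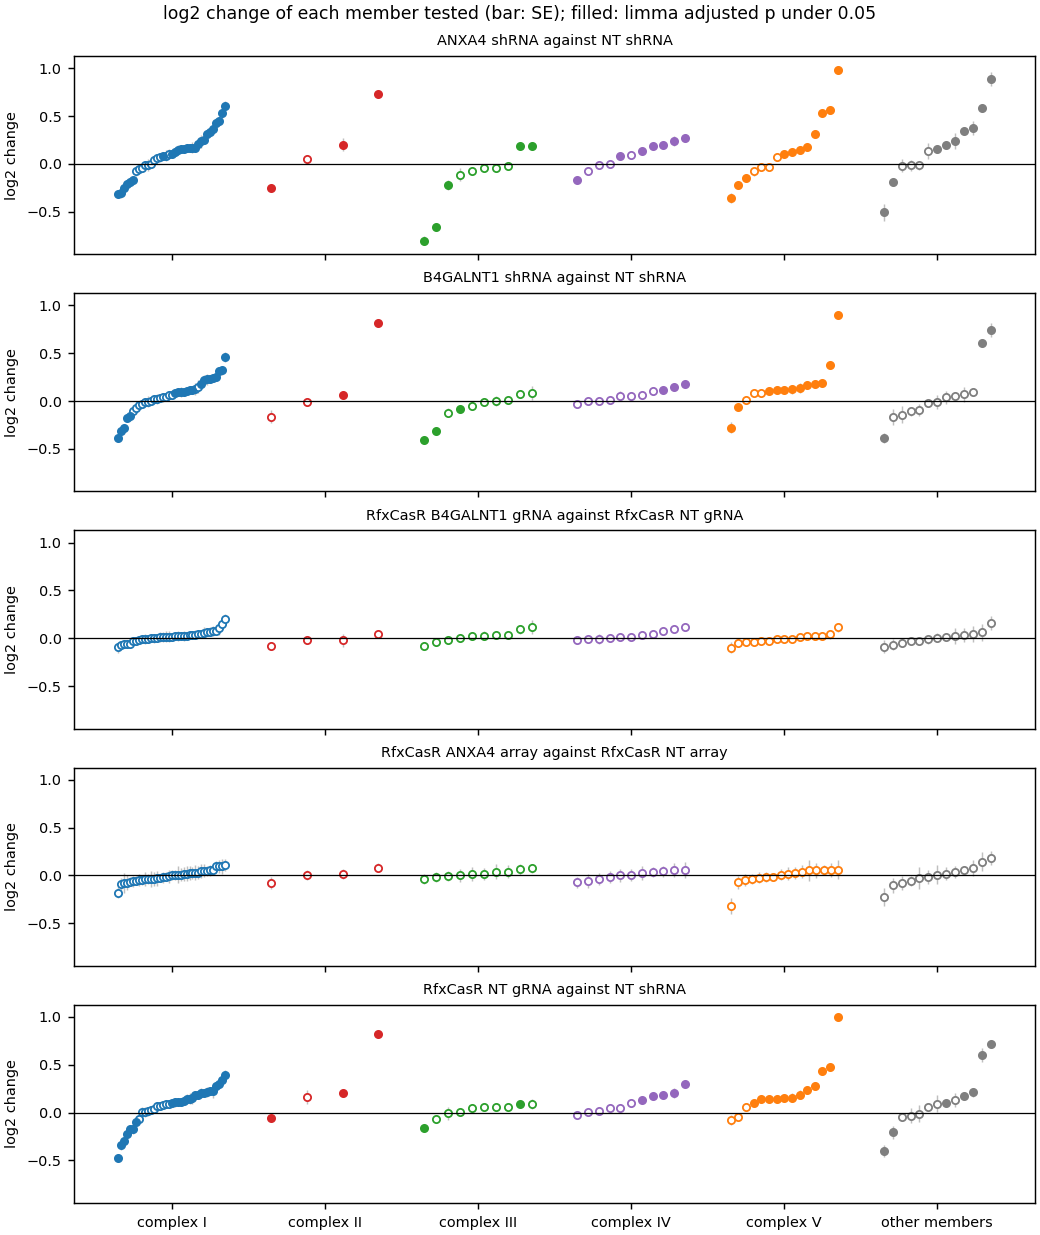
log2 change of each member tested (points, with SE bars), by complex, in 5 comparisons; filled points passed limma's adjusted p under 0.05. The 3 comparisons with NT shRNA libraries as control hold 61, 43 and 54 filled points; the single-guide and array comparisons hold none.

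The NT shRNA libraries stood apart from the other control as well. With the RfxCasR NT gRNA 54 of 90 members passed against the NT shRNA, 43 higher and 11 lower, beside 53.5% of all genes (24.5% higher, 29% lower) and 62% of genes with a mean of at least 5 FPKM. The control libraries are those of both shRNA comparisons above. This comparison changes the method and has no gene targeted in either group. In complex V 12 of 15 members were higher and none lower at limma's adjusted p under 0.05, with 13 at an unadjusted p under 0.05. The same comparison held 57 members higher and 7 lower after median-centring, and 27 higher and 18 lower after quantile normalization. Of all genes 29.71% were higher and 22.83% lower after median-centring, and 24.69% and 28.55% after quantile normalization. For 22 of 90 members all 3 NT shRNA libraries lay below the other 12 shRNA and single-guide libraries, which 9.72% of all genes did, and for 4 they lay above, which 11.3% of all genes did. The 22 were 8 members of complex I, 1 of complex II, 3 of complex IV, 8 of complex V, and NDUFAF3 and NDUFAF4; complex III had none. The same count in the other groups was 11 members below and 19 above with the ANXA4 shRNA (12% and 13.6% of all genes), 12 of the 19 from complex I, and 5 below and 1 above with the B4GALNT1 shRNA (8.24% and 4.27%). With the RfxCasR B4GALNT1 gRNA it was 0 below and 1 above (0.841% and 0.716%), and with the RfxCasR NT gRNA 0 below and 1 above (1.02% and 1.47%).

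ATP5O, the oligomycin-sensitivity subunit that joins the peripheral stalk of ATP synthase to its head (NM_001697, hg19 chr21:35275757-35288158, minus strand), differed most. It had 243, 233 and 237 FPKM with the ANXA4 shRNA, 230.4, 224 and 221 FPKM with the B4GALNT1 shRNA, 239, 254 and 238 FPKM with the RfxCasR B4GALNT1 gRNA and 246, 233 and 239.7 FPKM with the RfxCasR NT gRNA, against 128, 118 and 114 FPKM with the NT shRNA. The 4 other groups lay together and the NT shRNA libraries far below them, with no overlap. The log2 change against the NT shRNA was 0.98 with the ANXA4 shRNA, 0.90 with the B4GALNT1 shRNA and 0.99 with the RfxCasR NT gRNA (SE 0.0382; limma adjusted p = 3.07e-11, 1.38e-10 and 1.12e-10). Set against each other, the ANXA4 shRNA and B4GALNT1 shRNA libraries differed in ATP5O by a log2 of 0.08 (limma adjusted p = 0.0978; 95% interval -0.0025 to 0.16).

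SDHD, the small membrane anchor of complex II (NM_001276504, hg19 chr11:111957548-111966525, plus strand), had the same pattern. Its values were 40.7, 39.5 and 39.4 FPKM with the ANXA4 shRNA, 40.4, 43.4 and 43.8 FPKM with the B4GALNT1 shRNA, 40.7, 41.6 and 38.2 FPKM with the RfxCasR B4GALNT1 gRNA and 41.0, 43.1 and 43.5 FPKM with the RfxCasR NT gRNA, against 23.7, 22.8 and 24.4 FPKM with the NT shRNA. Again the NT shRNA libraries alone were low (log2 changes against them of 0.73, 0.82 and 0.82 in the ANXA4 shRNA, B4GALNT1 shRNA and NT gRNA libraries). NDUFAF3 and NDUFAF4 are partner proteins of early complex I assembly. NDUFAF4 had 18.9, 18.3 and 16.5 FPKM with the ANXA4 shRNA, 15.1, 18.5 and 14.8 FPKM with the B4GALNT1 shRNA, 15.6, 13.9 and 13.9 FPKM with the RfxCasR NT gRNA, and 8.94, 9.09 and 9.53 FPKM with the NT shRNA. NDUFAF3 had 84.4 to 91.1 FPKM with the ANXA4 shRNA, 85.7 to 93.6 FPKM with the B4GALNT1 shRNA, 93.5 to 102 FPKM with the RfxCasR NT gRNA, and 56.8 to 60.6 FPKM with the NT shRNA. For both genes the NT shRNA libraries were the lowest of the 15, without overlap. In complex V the same held for ATP5B (510.1 to 519 FPKM with the ANXA4 shRNA, 570.4 to 599 FPKM with the B4GALNT1 shRNA, 628 to 639 FPKM with the NT gRNA, 443 to 461 FPKM with the NT shRNA) and for ATP5F1, ATP5G1, ATP5G3, ATP5E, ATP5J2 and ATP5L. NDUFS1 went the other way, with 32.5 to 33.3 FPKM with the RfxCasR NT gRNA and 45.0 to 47.4 FPKM with the NT shRNA (log2 change -0.47), and its NT shRNA libraries were the highest of the 15.

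VIM, the intermediate filament vimentin, was low in the NT shRNA libraries too, at 561 ± 9.65 FPKM with the ANXA4 shRNA, 556 ± 6.51 FPKM with the B4GALNT1 shRNA and 578 ± 9.18 FPKM with the RfxCasR NT gRNA, against 394 ± 8.81 FPKM with the NT shRNA (SD, n = 3 each). It is the most abundant of the markers of the line and makes up most of the gap in their sum. The 7 markers of the HEK 293 line (neurofilaments, vimentin, keratins, CDH2, PAX2) summed to 735 to 762 FPKM with the ANXA4 shRNA, 761 to 777 FPKM with the B4GALNT1 shRNA, 787 to 805 FPKM with the RfxCasR B4GALNT1 gRNA and 810 to 829 FPKM with the RfxCasR NT gRNA, against 575 to 594 FPKM with the NT shRNA. None of the 7 was at 0 in a group. Of the 6 tested, limma called 4 higher and 2 lower with the ANXA4 shRNA, 4 higher and 0 lower with the B4GALNT1 shRNA, and 5 higher and 0 lower with the RfxCasR NT gRNA, each against the NT shRNA. The keratins KRT18 and KRT8 were the pair that fell with the ANXA4 shRNA (log2 change -0.57 and -0.19). The part of these markers in the members' pattern was not tested. In these bulk libraries fewer cells of a kind and less RNA per cell cannot be told apart.

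**Figure D4:**
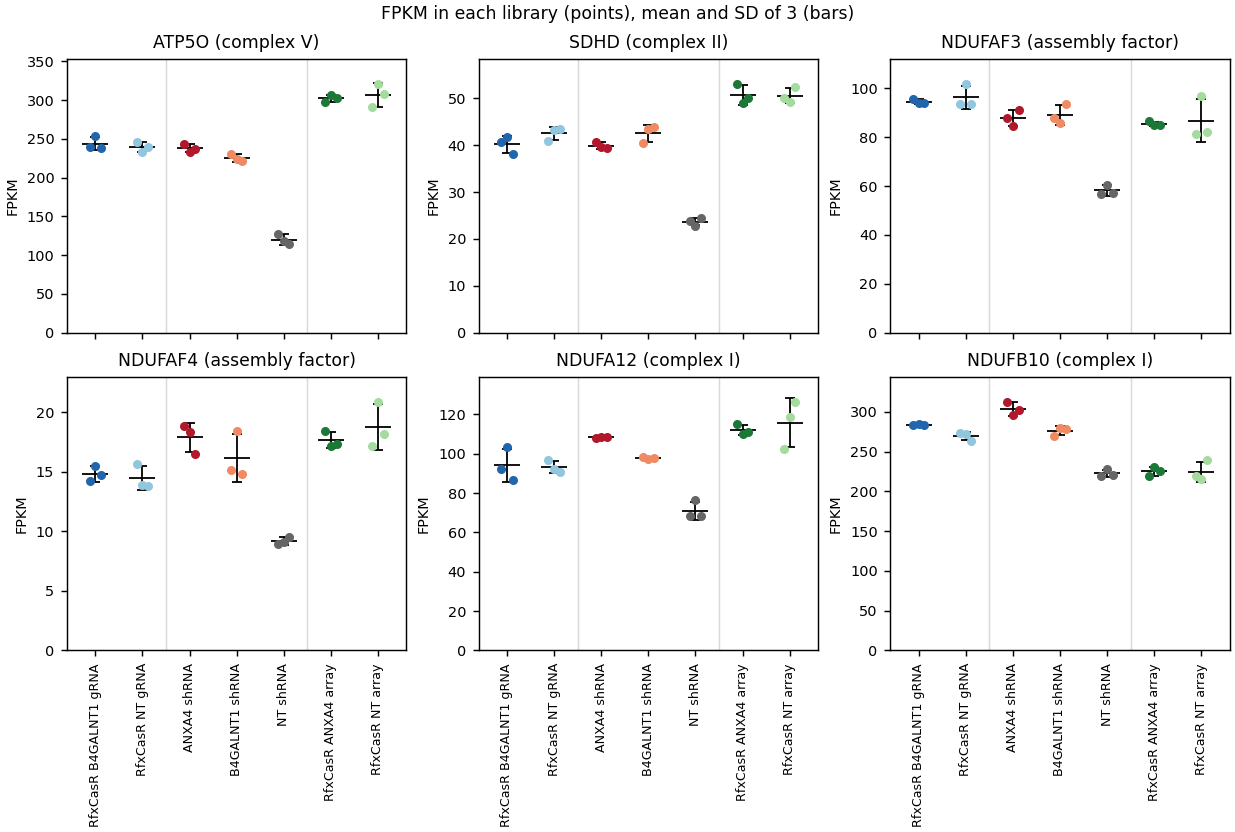
FPKM of ATP5O, SDHD, NDUFAF3, NDUFAF4, NDUFA12 and NDUFB10 in each library (points), with mean and SD of 3 (bars). In each panel the 3 NT shRNA libraries are the lowest of the 15 shRNA and single-guide libraries; for ATP5O they lie at 114 to 128 FPKM and the other 12 at 221 to 254 FPKM.

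Complex III divided within itself. UQCRQ, a small membrane subunit also called the ubiquinone-binding protein QP-C (NM_014402, hg19 chr5:132202319-132204536, plus strand), had 53.9, 51.2 and 53.9 FPKM with the ANXA4 shRNA, 82.4, 84.7 and 89.5 FPKM with the B4GALNT1 shRNA and 96.4, 99.0 and 84.3 FPKM with the NT shRNA. The RfxCasR B4GALNT1 gRNA libraries had 103, 109 and 105 FPKM and the RfxCasR NT gRNA libraries 98.2, 98.7 and 100.5 FPKM. The ANXA4 shRNA libraries were thus lowest of all, with no overlap (log2 change -0.80, SE 0.0497, limma adjusted p = 4.12e-09). UQCR11, the smallest subunit of the complex (NM_006830, hg19 chr19:1597154-1605483, minus strand), behaved likewise, with 69.9, 70.7 and 69.2 FPKM with the ANXA4 shRNA, 109, 113 and 114 FPKM with the B4GALNT1 shRNA and 114, 111 and 108 FPKM with the NT shRNA (log2 change -0.66, SE 0.0283, limma adjusted p = 8.78e-11 for ANXA4 against NT shRNA). The single-guide libraries lay at 116 to 124 FPKM. UQCRB, another small subunit, was lowest with the ANXA4 shRNA too (24.5 to 26.8 FPKM with the ANXA4 shRNA and 28.4 to 31.7 FPKM with the NT shRNA; log2 change -0.22).

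UQCRC2, a core subunit on the matrix side (NM_003366, hg19 chr16:21964385-21994981, plus strand), was split between the hairpins: 93.6, 98.5 and 99.6 FPKM with the ANXA4 shRNA, 62.2, 64.6 and 65.8 FPKM with the B4GALNT1 shRNA and 87.3, 85.4 and 83.3 FPKM with the NT shRNA. The ANXA4 shRNA libraries were the highest of the 15 and the B4GALNT1 shRNA libraries the lowest, with log2 changes against the NT shRNA of 0.19 and -0.41 (limma adjusted p = 1.06e-04 and 5.47e-08). UQCR10, a small subunit next to cytochrome c1 (NM_013387, hg19 chr22:30163358-30166402, plus strand), had 116.5, 112.2 and 115.2 FPKM with the ANXA4 shRNA, 94.3, 93.7 and 96.7 FPKM with the B4GALNT1 shRNA and 115, 122 and 117 FPKM with the NT shRNA. Only the B4GALNT1 shRNA libraries were low (log2 change -0.31, SE 0.032, limma adjusted p = 1.55e-06), and with the ANXA4 shRNA the log2 change was -0.04 (limma adjusted p = 0.303; 95% interval -0.11 to 0.03). CYC1, cytochrome c1, was the member of complex III that rose most with the ANXA4 shRNA (log2 change 0.19). UQCRH, the most abundant member of the complex, had a log2 change of -0.08 with the ANXA4 shRNA and -0.05 with the B4GALNT1 shRNA (limma adjusted p = 0.0501 and 0.24). In all, 2 members of complex III rose and 3 fell of 10 with the ANXA4 shRNA.

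**Figure D5:**
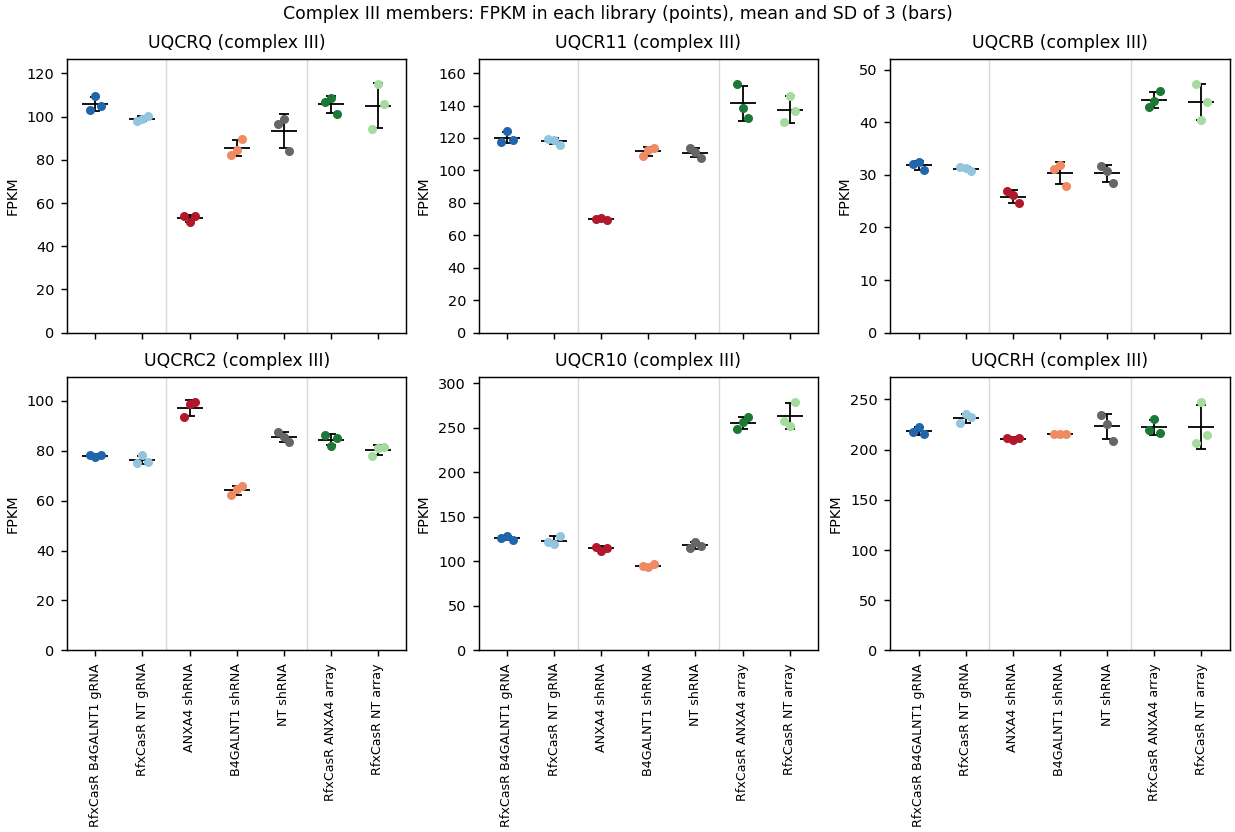
FPKM of 6 complex III members in each library (points), with mean and SD of 3 (bars). UQCRQ and UQCR11 are lowest with the ANXA4 shRNA (51.2 to 53.9 and 69.2 to 70.7 FPKM), UQCRC2 and UQCR10 with the B4GALNT1 shRNA (62.2 to 65.8 and 93.7 to 96.7 FPKM), and UQCR10 is highest in the array libraries.

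The promoters of 4 members are shown because these had 2 patterns over the groups, ATP5O and SDHD low with the NT shRNA, and UQCRQ and UQCR11 low with the ANXA4 shRNA. Each sequence runs 5′ to 3′ from 250 bases before to 50 bases after the start of the RefSeq gene, and capitals mark the motifs searched on both strands.
ATP5O (GRCh38.p14 chr21:33915755-33916054, minus strand): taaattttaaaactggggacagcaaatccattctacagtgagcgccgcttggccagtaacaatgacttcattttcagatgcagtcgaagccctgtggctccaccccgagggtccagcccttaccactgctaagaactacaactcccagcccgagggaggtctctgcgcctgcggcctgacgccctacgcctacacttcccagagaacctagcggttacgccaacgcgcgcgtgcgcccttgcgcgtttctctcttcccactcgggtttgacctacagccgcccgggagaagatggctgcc
SDHD (GRCh38.p14 chr11:112086623-112086922, plus strand): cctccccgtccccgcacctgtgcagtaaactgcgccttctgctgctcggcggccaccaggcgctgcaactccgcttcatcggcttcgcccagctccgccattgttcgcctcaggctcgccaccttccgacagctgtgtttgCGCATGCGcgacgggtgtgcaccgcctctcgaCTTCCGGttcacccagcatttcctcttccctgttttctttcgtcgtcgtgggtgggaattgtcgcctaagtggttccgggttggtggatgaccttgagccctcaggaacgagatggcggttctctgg
UQCRQ (GRCh38.p14 chr5:132866392-132866691, plus strand): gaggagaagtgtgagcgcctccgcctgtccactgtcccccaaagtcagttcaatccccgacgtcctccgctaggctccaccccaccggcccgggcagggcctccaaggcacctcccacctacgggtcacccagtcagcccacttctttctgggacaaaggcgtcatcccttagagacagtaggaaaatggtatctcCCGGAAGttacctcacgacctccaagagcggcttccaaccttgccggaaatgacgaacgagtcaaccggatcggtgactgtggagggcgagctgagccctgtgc
UQCR11 (GRCh38.p14 chr19:1605413-1605712, minus strand): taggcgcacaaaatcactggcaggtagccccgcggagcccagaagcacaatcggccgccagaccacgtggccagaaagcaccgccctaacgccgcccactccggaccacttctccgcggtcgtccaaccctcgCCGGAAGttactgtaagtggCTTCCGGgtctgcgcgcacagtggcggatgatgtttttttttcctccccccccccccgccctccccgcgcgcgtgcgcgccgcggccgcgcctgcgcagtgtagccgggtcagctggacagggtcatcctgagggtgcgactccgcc
Motifs known from genes of respiration were searched: CGCATGCG, the core of the NRF1 site, CCGGAAG of ETS factors such as GABPA, and AAGATGGCG of YY1. No matches overlap one another in the promoters shown. A promoter of RefSeq could be matched to 73 of the 90 members tested and to 10559 of all genes tested. The NRF1 letters were in 15.1% of the members' promoters, in 4.12% of those of all genes tested and in 2.02% of the 35116 promoters in the RefSeq table. For the ETS letters the shares were 27.4%, 19.5% and 10.3% in the same order of sets, and for the YY1 letters 11%, 4.13% and 1.75%. SDHD held the NRF1 letters 109 bases before its start and the ETS letters at 77, UQCR11 the ETS letters at 117 and 97, and UQCRQ the ETS letters at 54. ATP5O held none of these letters in this window. UQCRQ and UQCR11 thus shared the ETS letters, which SDHD holds too, and ATP5O and SDHD shared none; a match of letters is a description only.

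Set directly against each other, in a contrast without the NT shRNA libraries, the ANXA4 and B4GALNT1 shRNAs differed at 50 of 90 members, 31 higher and 19 lower with the ANXA4 shRNA, beside 51.5% of all genes (29.8% higher, 21.7% lower). The split was 23 higher and 24 lower after median-centring, beside 24.17% and 26.26% of all genes. Complex III held the 3 largest differences: log2 -0.68 for UQCRQ, -0.67 for UQCR11 and 0.59 for UQCRC2. Next came 2 accessory subunits of complex I. NDUFB2, of the membrane arm, had 190.4, 188 and 188 FPKM with the ANXA4 shRNA and 132, 138 and 138 FPKM with the B4GALNT1 shRNA, and NDUFA11, of the membrane arm as well, had 263, 263 and 272 FPKM with the ANXA4 shRNA and 193, 200.4 and 212 FPKM with the B4GALNT1 shRNA. For both the B4GALNT1 shRNA libraries were the lowest of the 15 and the ANXA4 shRNA libraries lay apart above them.

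No member was called between single guides. With the RfxCasR B4GALNT1 gRNA 0 of 90 members passed limma's adjusted p under 0.05 against the RfxCasR NT gRNA, beside 0.0221% of all genes. There were 8 members at an unadjusted p under 0.05, and 0 calls by voom on recovered reads or in the authors' deposited table. The log2 changes lay between -0.10 and 0.20. The 95% interval of 88 of the 90 members lay within 0.3 of zero on the log2 scale. ATP5O differed by 0.02 (95% interval -0.06 to 0.10), SDHD by -0.08 (-0.17 to 0.01), UQCRQ by 0.09 (-0.01 to 0.20) and UQCR10 by 0.04 (-0.03 to 0.11) on that scale. NDUFV3, a subunit of complex I, was highest at 0.20 (limma adjusted p = 0.481). Tested as a difference of differences, the B4GALNT1 effect by gRNA was higher than the effect by shRNA at 9 members and lower at 20, 29 of 90 in all, beside 35.5% of all genes (20.2% higher, 15.3% lower). The largest were SDHD at a log2 of -0.90, ATP5O at -0.88, NDUFAF4 at -0.71, NDUFAF3 at -0.63 and NDUFA12 at -0.45. Each of the 5 is a member at which the NT shRNA libraries stood below the other 12.

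In the array comparison 0 of 91 members passed limma's adjusted p under 0.05, beside 0.031% of all genes, with 4 at an unadjusted p under 0.05 and 0 by voom or in the authors' deposited table. The log2 changes of the libraries labelled ANXA4 array against those labelled NT array lay between -0.32 for ATP5D and 0.18 for NDUFAF2. Both signs rest on the labels and turn if these are exchanged: as for ANXA4, the authors' deposited table has the opposite signs, 0.28 for ATP5D and -0.17 for NDUFAF2. ATP5D had 82.1, 76.9 and 64.8 FPKM in the libraries labelled ANXA4 array and 86.1, 97.3 and 95.7 FPKM in those labelled NT array (limma adjusted p = 0.68). These libraries did not overlap, and the lowest was replicate 3 of the label ANXA4 array. The 95% interval of 84 of the 91 members lay within 0.3 of zero on the log2 scale.

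Both array groups had more message of many members than the other 15 libraries. All 6 array libraries lay above all 15 others for 36 of 90 members, beside 9.28% of all genes, and below them for 4 (NDUFS1, NDUFV1, SDHA and UQCRHL), beside 12% of all genes. The 36 were 15 members of complex I, 2 of complex II, 4 of complex III, 4 of complex IV, 8 of complex V and 3 others. UQCR10 had 248, 256 and 262 FPKM in the libraries labelled ANXA4 array and 258, 252 and 279 FPKM in those labelled NT array, whereas the 6 single-guide libraries had 119 to 129 FPKM, a ratio of means of 2.08. For COX7B, an accessory subunit of complex IV, the ratio was 1.82 (423 to 473 FPKM in the array libraries and 235 to 261 FPKM in the single-guide libraries). It was 1.77 for ATP5G1, 1.71 for NDUFA3, an accessory subunit of complex I, 1.59 for ATP5E, the epsilon subunit of the ATP synthase rotor, and 1.52 for SDHB, the iron-sulphur subunit of complex II. SDHA, its partner, had 85.5 to 95.6 FPKM in the array libraries and 121 to 126 FPKM in the single-guide libraries. Members took 1.39% to 1.56% of gene reads in the array libraries and 1.22% to 1.39% in the others. The array libraries were sequenced more deeply, so depth, the arrays and any other feature of that set of libraries cannot be told apart.

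Neighbouring lists were mixed, and their counts are to be read against the shares of all genes: 27.8% higher and 28.3% lower with the ANXA4 shRNA, 20.5% and 28.9% with the B4GALNT1 shRNA, and 24.5% and 29% with the RfxCasR NT gRNA, each against the NT shRNA. Of 39 assembly factors outside the rule, 15 rose and 9 fell with the ANXA4 shRNA, 15 rose and 8 fell with the B4GALNT1 shRNA, and 14 were higher and 9 lower in the NT gRNA libraries than in those of the NT shRNA. TTC19, which serves complex III, had log2 changes of 0.60, 0.52 and 0.53 in these 3 comparisons, and COA4, which serves complex IV, 0.56, 0.34 and 0.47. FOXRED1, which serves complex I, fell with both targeting hairpins (-0.43 and -0.53). Its mean was 20.9 FPKM with the RfxCasR NT gRNA and 25.5 FPKM with the NT shRNA. Of 8 carriers tested, 3 rose and 4 fell with the ANXA4 shRNA, and 3 rose and 1 fell with the B4GALNT1 shRNA. In the NT gRNA libraries 3 were higher and 2 lower than with the NT shRNA. CYCS, cytochrome c, was higher in each of the 3 comparisons (0.30, 0.50 and 0.29). Of 17 genes of pyruvate dehydrogenase and the citric acid cycle, 7 rose and 6 fell with the ANXA4 shRNA, and 6 rose and 2 fell with the B4GALNT1 shRNA. Between the NT gRNA and the NT shRNA 4 were higher and 6 lower. CS, citrate synthase, was likewise higher in each of the 3 comparisons (0.50, 0.63 and 0.55). Of 11 genes of coenzyme Q synthesis, 2 rose and 1 fell with the ANXA4 shRNA, and 1 rose and 3 fell with the B4GALNT1 shRNA, COQ10B most (-0.94). With the NT gRNA 2 were higher and 4 lower than with the NT shRNA, COQ10B among the latter (-0.43). Of 20 regulators of mitochondrial biogenesis and mitochondrial DNA, 4 rose and 4 fell with the ANXA4 shRNA, and 3 rose and 4 fell with the B4GALNT1 shRNA. Here 2 were higher and 3 lower with the NT gRNA than with the NT shRNA, TWNK among the higher (0.31). TWNK, the mitochondrial helicase, fell with the B4GALNT1 shRNA (-0.89), as did GABPA, the ETS factor named above (-0.55). Of the 95 genes of these lists tested, 0 passed limma's adjusted p under 0.05 or voom in the single-guide and in the array comparison, with 4 at an unadjusted p under 0.05 in each.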

How the data were processed

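The authors deposited FPKM values for 27142 genes in 21 libraries. Reads on the sense strand of exons were counted by HOMER, which condensed transcripts to genes, scaled to FPKM and gave each gene an exon length, per the file headers. The submitters' processing notes name hg19 as the build and FastQC, STAR, HOMER, R 3.3.2 and DESeq2 1.14.1 as tools. From the authors' 4 deposited comparison tables the log2 fold changes and adjusted p-values were used. In each, 22 to 26 gene names had become dates. These were matched to no member and stayed in the shares of all genes called there.

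Depth was recovered from the step that 1 read makes in FPKM times exon length. In each library 95.5% to 99.5% of values came out as whole reads with a tolerance of 0.1. Chi-square per degree of freedom between replicates was 2.27 to 13.6 over 21 pairs, and no library was a duplicate. It was at most 4.315 between shRNA or single-guide replicates and at least 6.05 between array replicates, which thus differed more among themselves. Genes reaching 1 FPKM in 3 or more of the libraries fitted were tested with limma 3.58.1 (R 4.3.3, intensity trend) on log2(FPKM + 1), which understates changes of low genes: 13554 genes in a model of the 15 shRNA and single-guide libraries, and 12886 in a model of the 6 array libraries. Calls required an adjusted p under 0.05 (Benjamini-Hochberg, over all genes tested in that comparison). The fits were run on simulated data, with independent normal noise around each gene's mean and changes planted in some genes. That setting held no shared replicate effect, scaling shift or counting error, so it cannot show how reliable the calls are. No interval or floor for counting error was computed. Values under 1 FPKM in single libraries, such as those of the rare isoforms, can rest on very few reads. An exact permutation test of 3 against 3 cannot go below 0.1 and was used for the target genes only.

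The members, complexes and lists were chosen with earlier results of these data known. Named are the 4 markers ATP5O, UQCR10, UQCRQ and NDUFB10; per comparison and complex the called member with the largest rise and the largest fall, or the 5 largest for the last 2 comparisons; the highest and lowest member of a complex; isoform sets; and up to 2 called genes per list and direction. Members named for a group that stood apart, such as NDUFAF3, UQCRB, ATP5B or SDHB, were chosen after their values were seen. Alternatives were another pseudocount (0.1), no filter or a mean of at least 5 FPKM, median-centring, quantile normalization, no variance trend, the groups compared alone, 1 model of 21 libraries, voom on recovered reads, a replicate block, an adjusted p under 0.01, and leaving out each library. In the deposited coordinates, 25 members overlap another listed gene, 11 of them on the same strand (ATP5B, ATP5E, ATP5J2 and COX7C among those described), where reads may be shared. The core of the NRF1 motif was taken after a longer form had been searched.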

Additional observations from a re-analysis of the deposited data

Results flagged for a closer look

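The difference between the ANXA4 and B4GALNT1 shRNAs was tested directly, in a contrast without the NT shRNA libraries, and 50 of 90 members passed limma's adjusted p under 0.05, beside 51.5% of all genes. The log2 differences, ANXA4 shRNA over B4GALNT1 shRNA, were -0.68 for UQCRQ, -0.67 for UQCR11, 0.59 for UQCRC2, 0.47 for NDUFB2 and 0.40 for NDUFA11, and in each of the 5 the 3 libraries of one group lay apart from the 3 of the other.

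The B4GALNT1 effect differed between the RfxCasR gRNA and the shRNA at 29 of 90 members in a test of the difference itself, beside 35.5% of all genes. The log2 differences, gRNA effect minus shRNA effect, were -0.90 for SDHD, -0.88 for ATP5O, -0.71 for NDUFAF4, -0.63 for NDUFAF3 and -0.45 for NDUFA12. Each rests on the NT shRNA libraries, which were low for these members.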

How the results depend on the processing

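The number of members called stayed within 1.5 times under every alternative run, and the main counts were 61 (ANXA4 shRNA), 43 (B4GALNT1 shRNA), 54 (RfxCasR NT gRNA against NT shRNA), 50 (ANXA4 against B4GALNT1 shRNA) and 29 (gRNA minus shRNA effect). Leaving out each library in turn gave 55 to 60, 33 to 40, 42 to 55, 42 to 47 and 25 to 30 in the same order of comparisons, and 0 for the single-guide and array comparisons. A replicate block gave 62, 46, 54, 52 and 30, and 0 for the single-guide and array comparisons. Counts with a library left out or with the block are given without the share of all genes. Whether the replicate numbers pair libraries across groups is not given by the labels. Same-numbered libraries of 2 groups had correlated deviations of -0.17 to 0.10. In the single-guide pair each library correlated best with its own number, a hint from the data only. Between the ANXA4 and B4GALNT1 shRNAs replicates 1 and 3 did so (0.10 and 0.08) and replicate 2 did not (-0.02). The share of reads in genes was lowest in replicate 3 of every group, with 85.67%, 85.73% and 84.79% for the NT shRNA. The direction of calls moved more. It was 44 higher and 16 lower, 41 and 8, 52 and 8, 25 and 24, and 9 and 23 by voom, in the same order. Of all genes voom called 28.73% higher and 28.55% lower, 25.65% and 25.2%, 28.15% and 26.76%, 26.34% and 25.63%, and 18.89% and 20.08%. Median-centring left 8 higher and 24 lower for the gRNA minus shRNA effect and quantile normalization 13 and 15. Of all genes 15.46% were higher and 19.43% lower after median-centring, and 17.1% and 17.07% after quantile normalization. Under quantile normalization UQCR11 with the RfxCasR NT gRNA against the NT shRNA had a log2 change of -0.0007 (limma adjusted p = 0.981), opposite in sign to its main value of 0.09, and the highest value over all settings was 0.13. That gene lost its call without NT shRNA replicate 3 or without RfxCasR NT gRNA replicate 1 or 2, and SDHA in the same comparison lost its call in most settings. Of the named members' changes, 440 values under other settings and 257 with 1 library left out kept direction and call; 8 and 7 lost the call, all of them of UQCR11 or SDHA in that comparison. FPKM carries no external standard, so every change is relative to the rest of the message.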
